A study of Homo sapiens with 10 samples.

Results

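The genes described here are 9 negative feedback regulators of mitogen-activated protein kinase (MAPK) signalling, chosen by gene symbol through the Entrez identifier of each row out of the 23786 genes measured. They are the dual-specificity phosphatase genes DUSP1, DUSP4, DUSP5, DUSP6 and DUSP10, the Sprouty genes SPRY2 and SPRY4, and the Sprouty-related genes SPRED1 and SPRED2. All 9 were measured on all arrays. The cells were MCF10A, a human mammary epithelial cell line that is established and does not form tumours, treated with TGF-β1 at 10 ng/mL, a cytokine that drives these cells through an epithelial to mesenchymal transition (EMT). The 10 arrays, each covering whole transcripts, hold untreated cells (1 array) and cells at 4 h and at days 1, 2, 3, 4, 5, 6, 8 and 12 with TGFβ (1 array each). All the cells, untreated ones included, were grown in medium with horse serum, epidermal growth factor, insulin, hydrocortisone and cholera toxin. The input of these to the MAPK pathway before TGFβ was added was not measured on these arrays. By the methods of the study, treatments were started at staggered times and all plates were harvested together, after a period in serum-free conditions. That period began before TGFβ was added for the 4 h array, and whether the growth factors were kept in it is not stated. Biological replicates were made in the experiment as a whole, in triplicate, and whether each array holds a single culture or a pool of them is not known.

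In this pathway a receptor tyrosine kinase activates RAS, which activates RAF, MEK and ERK in turn. The related kinases JNK and p38 answer mainly to stress and cytokines, and TGFβ can engage all 3 through its receptor apart from SMAD proteins. Active ERK switches on genes whose products shut it down again. DUSP proteins remove the phosphates that activate MAPKs, whereas Sprouty and SPRED proteins act upstream, between the receptor and RAF. The RNA of some of these genes is widely used as a readout of pathway output.

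No time point had a second array, so for tests the time course was divided into 3 windows, an early one (untreated, 4 h and day 1, n = 3), a middle one (days 2, 3 and 4, n = 3) and a late one (days 5, 6, 8 and 12, n = 4). Between windows, a gene was called where limma's p, adjusted over all genes, was 0.05 or less and the window means lay 1 log2 or more apart. The spread within a window holds both array noise and change with time. Values are log2 expression, and the median gene of an array lay between 2.92 and 2.98. The untreated array stood apart, with a median absolute deviation from the median of each gene of 0.238, against 0.0994 to 0.162 on the treated arrays, which touches every change given from untreated cells. Of the epithelial markers, CDH1 was at 9.04 or more and EPCAM at 6.85 or more on all arrays. They moved in opposite directions, with late minus early at 0.65 for CDH1 and -0.59 for EPCAM, neither called between windows. CDH1 was called higher by the regression on time described below (adjusted p = 0.0133). Of the luminal markers, ESR1 and PGR lay at 2.27 or below, KRT8 at 3.31 to 4.62, KRT18 at 6.08 to 6.53 and GATA3 at 5.19 to 5.93. None of these luminal markers was called. The 6 basal markers did not move one way. KRT14 lay at 4.64 in untreated cells, 4.90 at 4 h and 7.54 to 8.14 on the later arrays, and was called higher in the late window than in the early one (by 2.18). Late minus early was 0.74 for KRT6A and 0.26 for KRT5, and -0.78 for KRT17, -0.55 for TP63 and -0.52 for EGFR, none of them called between windows. In the regression on time, KRT14 (adjusted p = 0.0311) and KRT6A (adjusted p = 0.02645) were called higher. TP63, a transcription factor gene of basal cells, was called lower by it (adjusted p = 0.0318). TP63 stood at 6.73 at day 12, against 7.59 to 7.81 at days 5 to 8. Leukocyte markers PTPRC and CD3E lay at 1.47 or below and all 3 endothelial markers at 1.99 or below. The leukocyte list also holds CD68, at 6.79 to 7.73, and CD14, which was called lower in the late window (2.59 to 2.96) than in the early one (3.67 to 4.49). The part of these markers in the results was not tested. In such bulk RNA, fewer cells that express a gene and less of its RNA per cell cannot be told apart.

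Promoter windows of 250 bases before to 50 after a start site were taken from RefSeq (GRCh38.p14) for 7 of the 9 genes, 11 windows in all, and none was used for DUSP4 and DUSP5. Both strands were searched for CAGAC (bound by SMAD proteins), TGANTCA (AP-1), TGACGTCA (CREB and related factors), CCGGAA (ETS factors) and the CArG box (serum response factor). Stretches of 170 bases, bases -150 to 19 with the first transcribed base as 0, are shown for DUSP10, higher on all treated arrays, for SPRY2, lower on all treated arrays, for DUSP1, at the highest level of the 9, and for SPRED2, with the widest range. The first start is shown for DUSP10 and SPRY2 but the second for SPRED2, whose first window held no TGANTCA. Capitals mark every match to these motifs. All 4 genes lie on the minus strand, so the sequences are the reverse complement of the reference, 5′ to 3′.
DUSP10 (the first of 2 starts, chr1:221742070-221742239): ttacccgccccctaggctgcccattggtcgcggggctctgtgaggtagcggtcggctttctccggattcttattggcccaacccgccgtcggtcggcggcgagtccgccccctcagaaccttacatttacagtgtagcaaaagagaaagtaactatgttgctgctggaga
SPRY2 (the first of 3 starts, chr13:80341107-80341276): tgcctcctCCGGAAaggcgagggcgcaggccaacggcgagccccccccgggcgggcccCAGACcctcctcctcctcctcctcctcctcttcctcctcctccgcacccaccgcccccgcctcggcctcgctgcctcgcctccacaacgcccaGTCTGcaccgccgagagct
DUSP1 (chr5:172771176-172771345): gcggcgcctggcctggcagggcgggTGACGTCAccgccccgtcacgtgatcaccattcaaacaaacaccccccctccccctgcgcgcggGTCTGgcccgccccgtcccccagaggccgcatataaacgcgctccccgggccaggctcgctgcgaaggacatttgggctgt
SPRED2 (the second of 2 starts, chr2:65366759-65366928): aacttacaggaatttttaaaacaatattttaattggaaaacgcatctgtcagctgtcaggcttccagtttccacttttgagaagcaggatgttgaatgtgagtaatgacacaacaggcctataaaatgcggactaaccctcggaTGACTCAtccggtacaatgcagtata

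In the same numbering, the DUSP1 window held TGACGTCA at -125 and CAGAC, on the other strand as GTCTG, at -61. The first SPRY2 window held CCGGAA at -142 and CAGAC at -92 and at 1, and the other 2 SPRY2 windows held 1 CAGAC each. In the second SPRED2 window TGANTCA matched at -6 and at 34, overlapping the start site in the first case. SPRY4, SPRED1 and the first SPRED2 window held 1 CAGAC each, whereas DUSP6 and both DUSP10 windows held none of the 5 motifs in these bases. Among all 35116 windows of the same length, CAGAC was present in 45.3%, CCGGAA in 17.2%, TGANTCA in 7.71%, TGACGTCA in 1.85% and the CArG box in 1.29%. A match is a description of the letters and not a bound site.

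**Figure D1:**
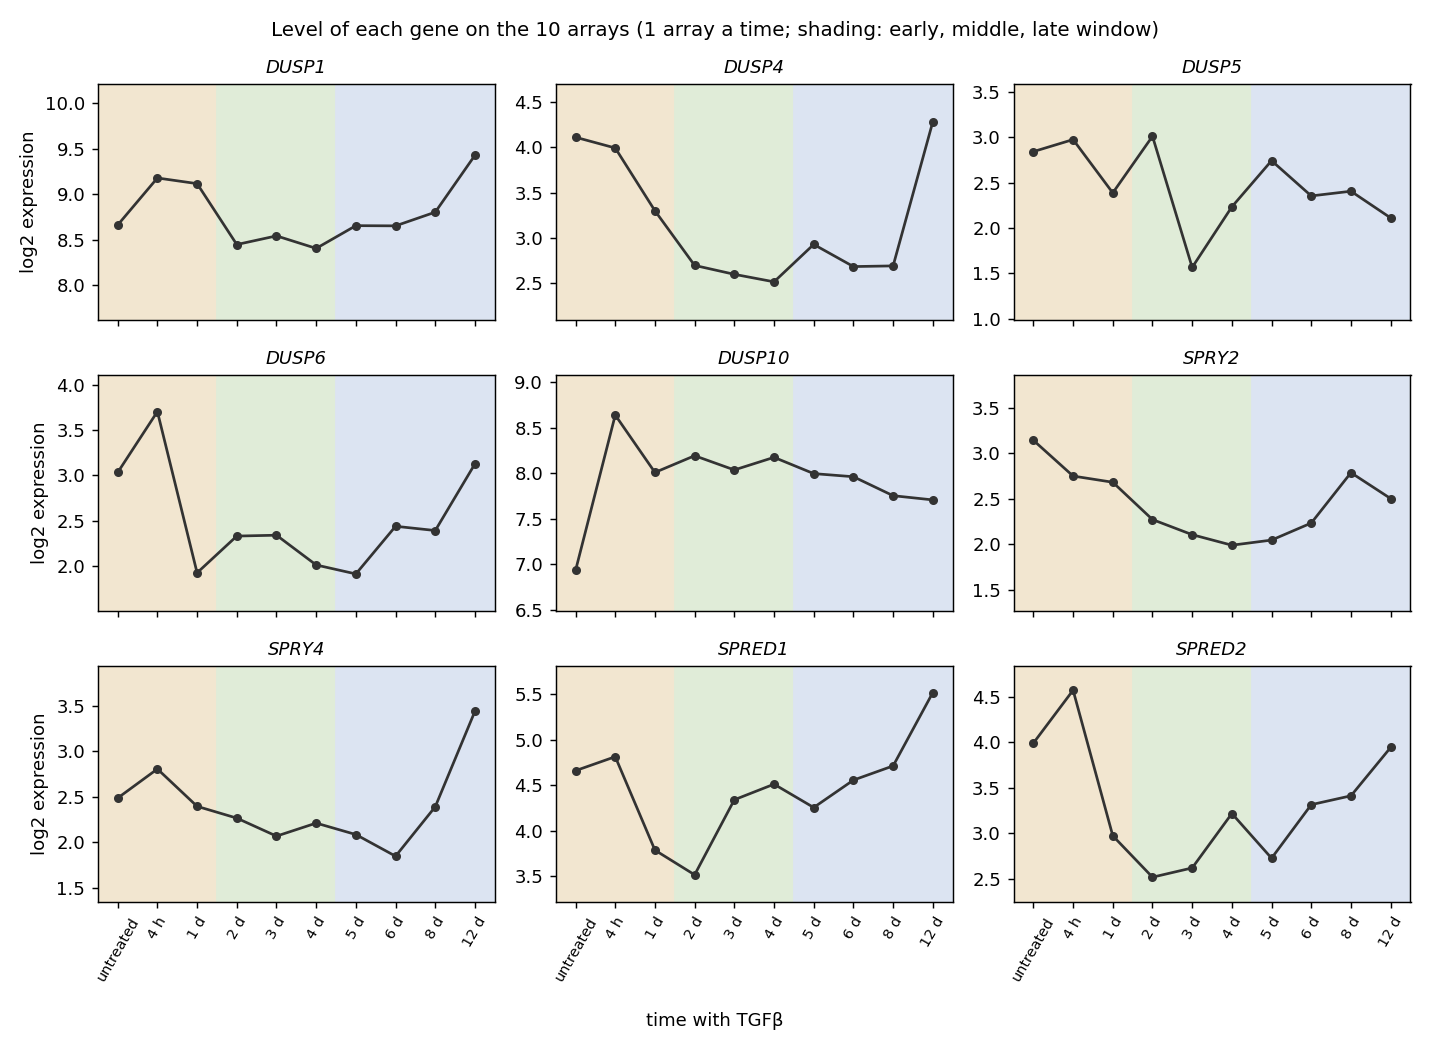
Level of each of the 9 genes in log2 expression (vertical axis, each panel spanning the same width of log2 units around its own middle) on the 10 arrays in order of time with TGFβ (horizontal axis, evenly spaced and not to scale). Each point is 1 array, lines join neighbouring times, and shading marks the early, middle and late window; DUSP10 is lowest in untreated cells, while DUSP1, DUSP4, SPRY4 and SPRED1 are highest at day 12.

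DUSP10 encodes a phosphatase that prefers p38 and JNK over ERK, and it had the largest difference of the 9 at 4 h. Its log2 level was 6.93 in untreated cells, 8.64 at 4 h, then 8.01, 8.19, 8.04, 8.17, 8.00, 7.96, 7.75 and 7.71 at days 1, 2, 3, 4, 5, 6, 8 and 12. The 4 h array was 1.71 above the untreated array, and all 9 treated arrays lay above it, by 0.78 at the least. Over all genes, 17.2% had all 9 treated arrays above the untreated one. The windows do not show this difference, since the early window holds both the lowest and the highest array. The mean was 7.85 ± 0.86 (SD, n = 3) in the early window, 8.13 ± 0.09 (SD, n = 3) in the middle one and 7.85 ± 0.15 (SD, n = 4) in the late one, and late minus early was -0.01 (SE 0.30, adjusted p = 0.994). With a single untreated array, the difference at 4 h has no replicate, and no test was run.

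DUSP1, an immediate early gene whose nuclear product acts on p38, JNK and ERK, had the highest level of the 9. Its levels were 8.66 in untreated cells, 9.18 at 4 h, 9.11 at day 1, 8.44, 8.54 and 8.40 at days 2, 3 and 4, 8.65, 8.65 and 8.80 at days 5, 6 and 8, and 9.43 at day 12. The middle arrays all lay below the early ones, and the day 12 array was the highest of all. Middle minus early was -0.52 (SE 0.21, adjusted p = 0.164), late minus early -0.10 (SE 0.19, adjusted p = 0.789), and neither was called. Its range over the 10 arrays, 1.02, was the narrowest of the 9.

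DUSP4 encodes an inducible nuclear phosphatase. It stood at 4.11 in untreated cells and 3.99 at 4 h, then at 3.30 at day 1, 2.70, 2.60 and 2.52 at days 2, 3 and 4, 2.93, 2.69 and 2.69 at days 5, 6 and 8, and 4.28 at day 12. The arrays of days 2 to 8 lay below every other array, and day 12 was back above the untreated level. DUSP4 was above the array median on 4 arrays. On those of days 2 to 8 it lay under the median, where differences may be understated. In the regression on time and its square, DUSP4 was the single gene of the 9 to be called, as lower (adjusted p = 0.001154, R2 = 0.88, with its largest change, -1.59, at day 4). Over all genes that regression called 8.65%. Middle minus early was -1.19 (SE 0.36, adjusted p = 0.0704) and late minus early -0.65 (SE 0.34, adjusted p = 0.241), neither called. Without the day 12 array, DUSP4 was called lower in both comparisons, with a middle minus early difference of -1.19 (adjusted p = 0.005487) and a late minus early difference of -1.03 (adjusted p = 0.005381). Without the day 1 array, its middle minus early difference was -1.44 (adjusted p = 0.0358).

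DUSP6, the cytoplasmic phosphatase specific for ERK, and DUSP5, its nuclear counterpart, lay near or below the median gene of their arrays on most arrays, where differences on these arrays may be understated. DUSP6 was at 3.03 in untreated cells and 3.70 at 4 h, at 1.93 at day 1, 2.33, 2.34 and 2.02 at days 2, 3 and 4, 1.92, 2.44 and 2.39 at days 5, 6 and 8, and 3.13 at day 12. Its 4 h, day 12 and untreated arrays were thus the 3 high ones, and the 4 h array was 1.77 above the day 1 array. Middle minus early was -0.66 (SE 0.39, adjusted p = 0.365), with 2 high arrays and a low one in the early window. Without the day 1 array it was -1.14 (adjusted p = 0.03612), a call. DUSP5 stood at 2.84, 2.97 and 2.39 in the early window, 3.01, 1.57 and 2.23 in the middle one and 2.74, 2.35, 2.40 and 2.11 in the late one. Its windows overlapped throughout, and its differences of -0.46 (middle minus early, SE 0.30, adjusted p = 0.426) and -0.33 (late minus early, SE 0.28, adjusted p = 0.497) were not called.

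The Sprouty proteins are induced by growth factors and block the step between the receptor and RAF. SPRY2 was at 3.14 in untreated cells, 2.75 at 4 h, 2.68 at day 1, then at 2.27, 2.11 and 1.99 at days 2, 3 and 4, 2.05, 2.23 and 2.79 at days 5, 6 and 8, and 2.50 at day 12. All 9 treated arrays lay below the untreated one, which was so for 23.6% of all genes. Its middle minus early difference was -0.74 (SE 0.19, adjusted p = 0.0391), the single one of the 9 below an adjusted p of 0.05, although its size was under the limit of 1 log2 and it was not called. Late minus early was -0.47 (SE 0.18, adjusted p = 0.110). SPRY4 was at 2.49 in untreated cells, 2.81 at 4 h, 2.40 at day 1, 2.27, 2.07 and 2.21 at days 2, 3 and 4, 2.09, 1.85 and 2.39 at days 5, 6 and 8, and 3.44 at day 12. Its middle arrays lay below its early ones, and the day 12 array was the highest of the 10. The regression gave SPRY4 an adjusted p of 0.001506 and an R2 of 0.91, but its largest change, 0.96 at day 12, was just under the limit of 1, so that it was not called.

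SPRED1 and SPRED2 bind RAS and RAF at the membrane, and SPRED1 recruits neurofibromin, which turns RAS off. They had the widest ranges of the 9, 2.00 and 2.06. SPRED1 was at 4.66 in untreated cells and 4.81 at 4 h, at 3.79 and 3.51 at days 1 and 2, at 4.34 and 4.51 at days 3 and 4, at 4.26, 4.56 and 4.71 at days 5, 6 and 8, and at 5.52 at day 12. Its lowest arrays were thus days 1 and 2, and days 6 and 8 differed from the untreated array by -0.10 and 0.05. SPRED2 was at 3.99 in untreated cells and 4.57 at 4 h, at 2.97, 2.52 and 2.62 at days 1, 2 and 3, 3.22, 2.73, 3.31 and 3.41 at days 4, 5, 6 and 8, and 3.94 at day 12. Day 12 lay 0.05 below its untreated array, and all arrays between 4 h and day 12 lay lower. Middle minus early was -0.30 (SE 0.36, adjusted p = 0.700) for SPRED1 and -1.06 (SE 0.38, adjusted p = 0.121) for SPRED2. Late minus early was 0.34 (SE 0.33, adjusted p = 0.561) and -0.50 (SE 0.36, adjusted p = 0.406). None of these was called, and without the day 1 array the SPRED2 difference between the middle and early windows was -1.498 (adjusted p = 0.01372), a call.

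The arrays were then compared across the 9 genes. At 4 h, 7 of the 9 were above the untreated array, as were 11029 of all 23786 genes. The median difference was 0.32 against -0.03 over all genes. DUSP6 was 0.67 higher, SPRED2 0.58, DUSP1 0.52, SPRY4 0.32, SPRED1 0.15 and DUSP5 0.13, while DUSP4 was 0.12 lower and SPRY2 0.39 lower. DUSP10 alone was at least 1 log2 higher, as were 2.21% of all genes, and 0 of the 9 were at least 1 log2 lower, as were 1.39% of all genes.

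Day 1 differed from 4 h in the other direction. DUSP6 at day 1 was 1.77 below its 4 h level, SPRED2 1.60 and SPRED1 1.03. These 3 of 9 were at least 1 log2 lower, against 0.837% of all genes. All 9 genes were lower at day 1 than at 4 h, although day 1 minus 4 h was only -0.06 for DUSP1 and -0.07 for SPRY2. The share of all genes lower at day 1 was not counted. Both sides are 1 array, and no test was run.

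In the middle window, 8 of the 9 genes had a mean below that of the early window, as did 13056 of all 23786 genes, and DUSP10 had one above it. The median difference was -0.52 against -0.03 over all genes. Of the 9 genes, 0 were called by limma, which called 2.80% of all genes. At an unadjusted p under 0.05 there were 4 of 9 (DUSP1, DUSP4, SPRY2 and SPRED2), against 21.6% of all genes. All 3 middle arrays lay below all 3 early arrays for DUSP1, DUSP4, SPRY2 and SPRY4, 4 of 9, whereas 13.3% of all genes had this order. The early window holds a day 1 array that already was low for several genes, and day 1 was the array whose removal brought the most calls, 3 of 9. Its removal also brought the most calls over all genes, 1092, against 667 with all arrays.

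In the late window, the differences from the early window were smaller, with a median of -0.33 against -0.06 over all genes. Below 0 were 8 of 9, as were 14115 of all 23786 genes. Again 0 of 9 were called by limma, beside 4.56% of all genes, and 1 of 9 (SPRY2) had an unadjusted p under 0.05, beside 28.3% of all genes. The late and early arrays of all 9 genes overlapped, whereas 24.0% of all genes had no overlap. Late minus middle was above 0 for 8 of 9 genes, at 0.13 to 0.64, against 10813 of all 23786 genes, and was -0.28 for DUSP10. Of these differences 0 of 9 were called by limma (0.374% of all genes were) and 0 of 9 had an unadjusted p under 0.05 (9.78% of all genes had).

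**Figure D2:**
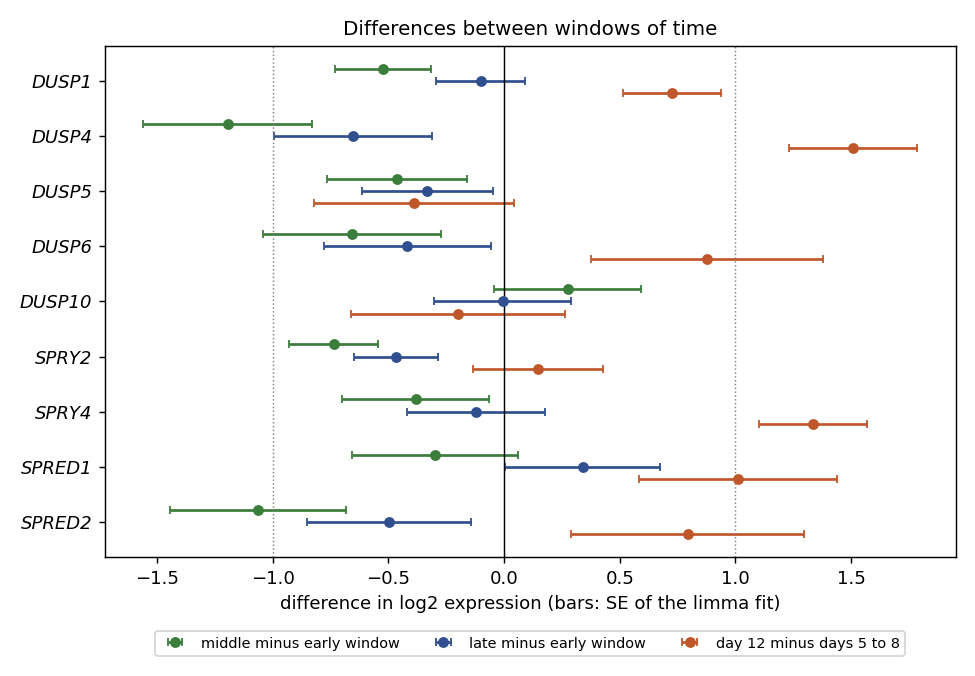
Differences in log2 expression (horizontal axis) for each gene (vertical axis), as middle minus early, late minus early and day 12 minus days 5 to 8, with bars for the SE of the limma fit and dotted lines at the limit of 1 log2. Middle minus early lies below 0 for all genes but DUSP10, and day 12 minus days 5 to 8 lies above 0 for all but DUSP5 and DUSP10.

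The late window was not uniform. Day 12 stood above every array of days 1 to 8 for DUSP1, DUSP4, DUSP6, SPRY4, SPRED1 and SPRED2, 6 of 9, as it did for 12.5% of all genes. Against the mean of days 5, 6 and 8, day 12 was higher by 1.51 for DUSP4, where it stood at 4.28 against 2.77 ± 0.14 (SD, n = 3), by 1.33 for SPRY4, at 3.44 against 2.11 ± 0.27, and by 1.01 for SPRED1, at 5.52 against 4.51 ± 0.23. It was higher by 0.88 for DUSP6, 0.79 for SPRED2, 0.73 for DUSP1 and 0.15 for SPRY2, and lower by 0.20 for DUSP10 and by 0.39 for DUSP5. This contrast was chosen after the values were seen. It has 1 array on one side, taken to vary like the arrays within the other windows.

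With that spread, 0 of 9 were called, and the lowest adjusted p were 0.151 for SPRY4 (SE 0.23), 0.157 for DUSP4 (SE 0.28) and 0.435 for DUSP1 (SE 0.21). Over all genes limma called 0.0294%, that is 7 genes. At an unadjusted p under 0.05 there were 4 of 9 genes (DUSP1, DUSP4, SPRY4 and SPRED1), against 6.53% of all genes. The median difference was 0.79, against 0.0009 over all genes. Without the day 1 array, DUSP4 was called with the same difference (adjusted p = 0.02156). On the day 12 array EGFR, the receptor upstream of these genes, was at 9.12, near its 9.07 in untreated cells, against 8.44 to 8.74 at days 5 to 8, and its part in these values was not tested.

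Against untreated cells, the median change of the 9 genes was 0.32 at 4 h, -0.46, -0.70, -0.69 and -0.61 at days 1, 2, 3 and 4, -0.41, -0.59 and -0.36 at days 5, 6 and 8, and 0.17 at day 12. The median over all genes stayed between -0.03 and -0.08. A list of 14 other genes that ERK is known to induce or that serve as its output markers gave medians of 0.29 at 4 h, -0.44, -0.68, -0.75 and -0.67 at days 1, 2, 3 and 4, -0.60, -0.93 and -0.58 at days 5, 6 and 8, and 0.05 at day 12. Both medians thus were above untreated cells at 4 h, below them at days 1 to 8 and near them at day 12, on the same 10 arrays and from the same untreated array. The list of 14 was split at 4 h, where 6 were below untreated cells, as were 53.5% of all genes. At day 12 the list of 14 was split too, since 6 were below untreated cells, as were 56.6% of all genes, and the rest were above. Of those below, MYC was at -1.32, EGR1 at -1.16, FOSL1 at -1.07 and FOS at -0.92, picked after their values were seen.

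**Figure D3:**
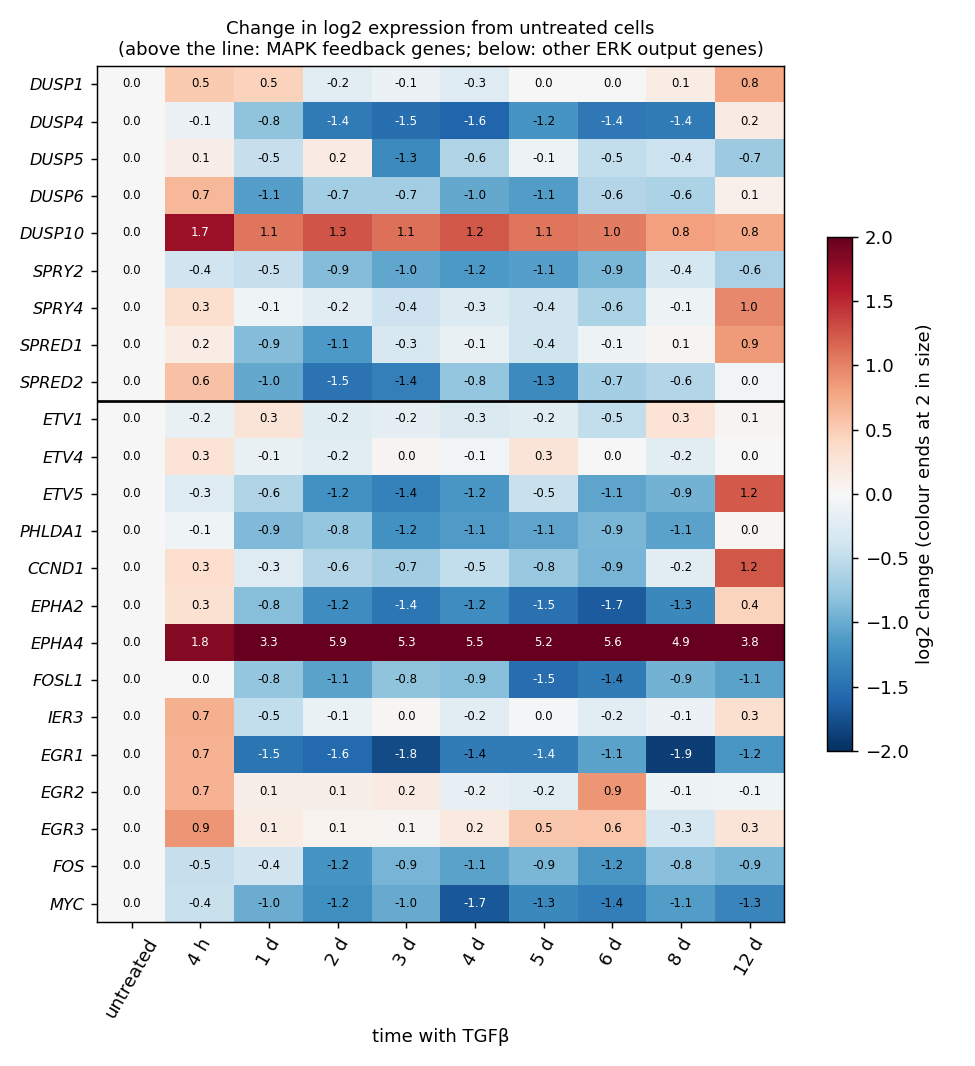
Change in log2 expression from untreated cells (colour and printed value, with the colour ending at 2 in size) for the 9 genes above the line and the list of 14 ERK output genes below it (rows), on the 10 arrays in order of time (columns). Most rows are below 0 from day 1 to day 8, DUSP10 and EPHA4 are above 0 on every treated array, and ETV5, CCND1 and EPHA2 are above 0 at day 12.

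Among these ERK output genes, the regression on time called 5 lower and 2 higher of 14, against 3.44% lower and 5.21% higher of all genes. The direction of such a call is that of the largest change from untreated. CCND1 was called higher through its change of 1.25 at day 12, whereas its changes at days 1 to 8 lay between -0.94 and -0.20. EPHA4, an ephrin receptor gene, was called between windows, as higher. Its level was 1.78 in untreated cells, 3.62 at 4 h and 5.04 at day 1, then 7.12 to 7.64 in the middle window and 5.54 to 7.36 in the late one. Its late minus early difference was 3.16 (SE 0.61, adjusted p = 0.004968) and its middle minus early difference 3.88 (SE 0.66, adjusted p = 0.005593).

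ETV5, an ETS factor gene downstream of ERK, was low in the middle window and high at day 12. It was above the array median at day 12 alone. On 4 arrays it lay below the lower quartile of the array, where differences may be understated. It stood at 2.67 in untreated cells, 2.41 at 4 h, 2.08 at day 1, 1.46, 1.32 and 1.51 at days 2, 3 and 4, 2.22, 1.62 and 1.73 at days 5, 6 and 8, and 3.90 at day 12. It was the single gene of all the lists here to be called at day 12 against days 5 to 8, by 2.04 (SE 0.27, adjusted p = 0.04562). EPHA2 stood at 6.28 at day 12 against 4.16 to 4.54 at days 5 to 8, and CCND1, which encodes cyclin D1, at 6.62 against 4.44 to 5.17, with adjusted p of 0.156 and 0.0988. FOSL1, an AP-1 gene, was at 3.16 at day 12, within the 2.69 to 3.29 of days 5 to 8. Of the 14, 5 had day 12 above every array of days 1 to 8. ETV5, EPHA2, CCND1 and FOSL1 were picked after their values were seen.

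Other phosphatases and inhibitors of the pathway were looked at next. Of all genes, the regression called 8.65%. The window comparisons called 4.56% (late against early), 2.80% (middle against early) and 0.374% (late against middle). Of 5 other MAPK phosphatase genes, 0 were called in any window comparison or by the regression. The largest late minus early differences were those of DUSP16 (-0.50, adjusted p = 0.0366), which acts on JNK, and of DUSP2 (-0.42, adjusted p = 0.108). DUSP8, also a JNK and p38 phosphatase, was at 4.60 at 4 h, 1.06 above its 3.53 in untreated cells, and lay between 4.21 and 4.67 afterwards. Of 3 other Sprouty and SPRED genes, SPRY3 was called higher by the regression (adjusted p = 0.00983), at 4.12 on the arrays of days 6 and 8 against 3.04 in untreated cells. SPRY1 had a late minus early difference of -0.45 (adjusted p = 0.0311), at low levels between 1.73 and 2.48. Of 11 other inhibitors of receptor and RAS signalling, IL17RD, whose product is also known as Sef, was called higher by the regression (adjusted p = 0.0105), at 4.11 at day 6 and 2.72 in untreated cells. LRIG1, which encodes a membrane protein that restrains the epidermal growth factor receptor, had a late minus early difference of -0.59 (adjusted p = 0.140) and was at 3.26 at day 12 against 4.44 in untreated cells. ERRFI1, also an inhibitor of the epidermal growth factor receptor, had a late minus early difference of 0.58 (adjusted p = 0.0168), under the limit.

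Among the kinases, adaptors and scaffolds, 1 gene was called between windows, in late against early, where 4.56% of all genes were called. KSR1, a scaffold that holds RAF, MEK and ERK together, was called among 16 genes of the ERK cascade, at 6.13, 6.07, 6.48 and 5.70 in the late window against 4.56, 4.36 and 4.58 in the early one, with a late minus early difference of 1.60 (SE 0.17, adjusted p = 0.0001448). EGFR had differences of -0.80 (middle minus early, adjusted p = 0.0155) and -0.52 (late minus early, adjusted p = 0.0432), both under the limit. EGFR was picked after its values were seen. Of 14 genes of the JNK and p38 cascades, 0 were called in any window comparison or by the regression, which called 8.65% of all genes. The largest late minus early differences there were those of MAPK10 (-0.70, adjusted p = 0.0737), a JNK gene, and MAP2K3 (-0.69, adjusted p = 0.0538), which encodes a kinase of p38.

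The shape of the regression set which genes it called. With time taken as log2 of days plus 1, it called 5 of the 9 genes, DUSP4, DUSP6, SPRY2, SPRED1 and SPRED2, and 11.3% of all genes. With days cubed added, it called DUSP4, SPRY2 and SPRED2, 3 of 9, and 9.57% of all genes. DUSP4 was called in all of these, and DUSP1, DUSP5, DUSP10 and SPRY4 in none of them. For DUSP10 the quadratic fit gave an R2 of 0.09.

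The courses of the 9 genes were set against each other by Pearson r over the 10 arrays, which share 1 normalization and are not replicates, so that r is a description. Of 36 pairs, 14 had an r of at least 0.6, all of them among the 7 genes other than DUSP5 and DUSP10, whose 21 pairs ran between 0.25 and 0.87. The highest was that of DUSP6 with SPRED2, 0.87, and 0.86 without day 12. DUSP4 with SPRY4 and DUSP1 with SPRY4 both had 0.82, and without day 12 these were 0.75 and 0.64. SPRED1 with SPRY4 had 0.64, and 0.22 without day 12. DUSP10 had an r of at most 0.045 with each of the others, and -0.51 with SPRY2.

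**Figure D4:**
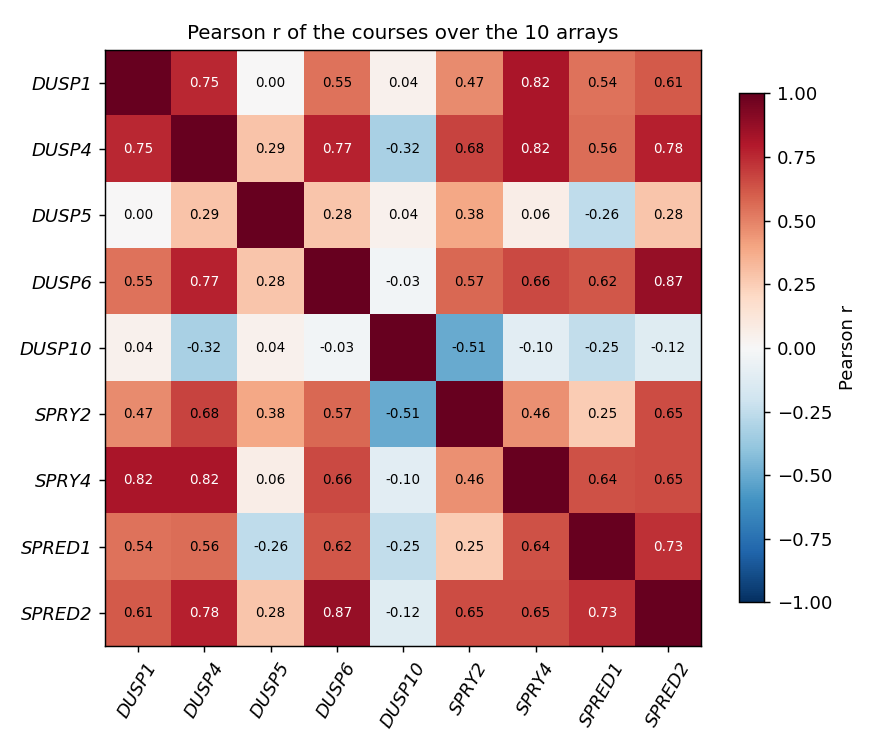
Pearson r between the courses of each pair of the 9 genes over the 10 arrays (rows and columns the genes, colour and printed value r). The 7 genes other than DUSP5 and DUSP10 have an r of 0.25 to 0.87 with each other, whereas the rows of DUSP5 and DUSP10 hold values of 0.38 or below.

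The genes with the most similar courses were sought for the 3 widest ranging of the 9, among 11714 or 11715 named genes above the median gene. For SPRED2 these were COTL1 (r = 0.98), an actin-binding protein gene, MYBBP1A (0.96) and SPAG1 (0.96). Their ranges were narrower, COTL1 lying between 3.92 and 5.01. For SPRED1 they were COQ2 (0.95), an enzyme gene of coenzyme Q synthesis, ZNF512B (0.94) and FAM111B (0.91), the last between 1.25 and 4.95. For DUSP6 they were XYLB (0.94), FKBP14 (0.94) and COG5 (0.91), the last within 6.75 and 7.16 on all arrays. Each r is a description over 10 arrays, the highest found among all genes ranked.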

How the data were processed

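Total RNA of MCF10A cells was measured on Affymetrix Human Gene 2.0 ST arrays. The deposited log2 values are the authors' RMA summaries, 1 per Entrez gene by a custom mapping of probes, and were used as deposited, low values included. Per the study's methods cells were without serum before harvest, and the study's 3 biological replicates are not matched to arrays, so whether an array holds 1 culture or several is not given in the sources used here. The p-values thus measure only the spread between arrays at different times. The precision is limited by the 10 arrays. Symbols came from an NCBI table by Entrez identifier (23093 of 23786 genes had one).

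Window means were compared in limma 3.58.1 (R 4.3.3), with Benjamini-Hochberg adjustment over 23786 genes. Each gene was regressed in limma on days and days squared (untreated as 0), and called where the adjusted p was 0.05 or less, R2 was 0.6 or more and some treated array lay 1 log2 or more from untreated. The degree is not stated by the study, whose software for this step was not used. For 4 h against untreated, with 1 array a side, no test was run. The steps were tested on simulated data. The genes and lists were chosen with earlier results of these data known, and day 12 against days 5 to 8, with its alternatives, was chosen after seeing the data. Named were all 9 genes and, in each list, each gene called between windows or else up to 4 with the largest late minus early difference; others are marked or were called in another comparison. MAP2K2 was not measured under that symbol. Promoters came from RefSeq (GRCh38.p14). Alternatives were other windows, other forms and limits of the regression, centred arrays, genes above the median gene only, other limits, and each array left out in turn.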

Additional observations from a re-analysis of the deposited data

Results flagged for a closer look

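DUSP4 in the late window had a value far from the others. Day 12, at 4.28, lay above days 5, 6 and 8, at 2.93, 2.69 and 2.69, and its gap to the nearest of them was 0.847 of the range of the 4 arrays, above Dixon's critical value for 4 samples. Chance gives such a gap in about 1 of 20 groups, and each of the 9 genes was looked at in this way. The arrays of the window are different times, so that the value can be a level at day 12 or of that array, and these cannot be told apart with 1 array.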

How the results depend on the processing

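Of the differences of the 9 genes between windows, recomputed under each alternative, 189 kept their direction and side of the threshold, 4 gained a call and 2 changed sign. With single arrays left out, 334 kept both, 6 gained a call and 11 changed sign. The main exceptions follow, and their cause was not tested except where fewer arrays, fewer genes or another limit is the change itself. For late minus early, DUSP10 (-0.01) was 0.069 with day 1 in the middle window and 0.0586 with day 4 in the late one, and lay between -0.47 (without untreated) and 0.38 (without 4 h) with single arrays left out, where SPRY4 lay between -0.46 (without day 12) and 0.0766 (without day 6). For middle minus early DUSP10 then lay between -0.19 (without untreated) and 0.66, and SPRED1 between -0.61 and 0.0059 (without day 2). For late minus middle DUSP5 lay between -0.22 (without day 3) and 0.50, and SPRY4 between -0.0737 (without day 12) and 0.46. For day 12 minus days 5 to 8 SPRY2 lay between -0.0079 (without day 5) and 0.36. With single arrays left out, 0 to 1 of 9 genes were called for late against early, 0 to 3 for middle against early, 0 to 1 for day 12 against days 5 to 8 and 1 to 2 by the regression (DUSP6 added without day 1, SPRY2 without day 8 or day 12). For middle against early, 2 were called with day 1 in the middle window (DUSP6 and SPRED2), 1 among genes above the median gene (DUSP4) and 1 with no log2 limit (SPRY2). The regression called 3 with degree 3, 5 with log time and 2 with no limits on R2 and size (DUSP4 and SPRY4). At 4 h, 4 of 9 differed by at least 0.5 log2, and 3 by at least 1 from the mean of untreated and day 1. Over all genes, with no log2 limit 3598 were called for late against early (1084 with it) and 1865 for middle against early (667 with it). Leaving out single arrays gave 439 (without day 4) to 1092 (without day 1) for middle against early, 2 (without day 3) to 110 (without day 4) for late against middle, where 89 were called with all arrays, and 1 (without day 2) to 19 (without day 1) for day 12. With day 4 in the late window 1 was called for late against middle. At 4 h, 856 genes were 1 log2 apart, 5334 at 0.5 log2, 174 at 1.5 log2 and 251 from the mean of untreated and day 1. Signal limits DUSP4, DUSP5, DUSP6, SPRY2 and SPRY4, whose levels were mostly under the array median.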
